A study of Mus musculus with 74 samples.

Results

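The 9 genes described here are *Ccl2*, *Pf4*, *Ccr2*, *Cx3cr1*, *Csf1r*, *Clec4f*, *Marco*, *Cd68* and *Mmp12*, which in liver mark or serve macrophages and monocytes. They were picked by symbol from the 14583 genes of the RNA-seq table with the RNA values of the *Gps2* knockout in view, and 4 of them (*Ccr2*, *Cx3cr1*, *Pf4* and *Mmp12*) were picked because they were higher there. For this reason the RNA values of all 9 genes are given as a description, without a test between the groups. The ChIP-seq values were not part of the choice, and they are taken from every peak whose nearest gene, as annotated in the tag count tables, was one of the 9. Such peaks numbered from 3 to 33 per comparison, and *Cd68* was the nearest gene of no peak in any table.

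The series held 74 libraries from livers of C57BL/6 mice aged 8 to 12 weeks on chow: 8 of RNA, 64 of chromatin immunoprecipitation (ChIP) and 2 of input. In the *Gps2* line, *Gps2* was deleted by Cre recombinase under the albumin promoter (LKO), which acts in hepatocytes, so the macrophages of these livers keep the gene, and *Gps2* flox/flox mice without Cre were the controls (WT). *Ncor* LKO and *Smrt* LKO livers, which lack a corepressor partner of GPS2, were each compared with their own WT livers, and *Ppara* KO mice carry the deletion in the whole body, macrophages included. RNA was sequenced only in the *Gps2* line, with 4 WT and 4 LKO livers, and each ChIP comparison had 2 or 3 libraries per group, except GPS2 and RNA polymerase II in the *Gps2* line with 1 each. The labels do not say that libraries of a group came from separate animals, so the p-values measure the spread between these libraries.

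The resident macrophages of the liver are the Kupffer cells, which sit in the sinusoids and clear particles and cell debris. CLEC4F is a lectin found on mouse Kupffer cells and MARCO a scavenger receptor, while the receptor CSF1R carries the survival signal that macrophages need. Blood monocytes enter the liver when CCL2 engages CCR2, they can mature into macrophages there, and CX3CR1 marks part of the monocytes and macrophages. GPS2 belongs to a corepressor complex with NCOR or SMRT and the deacetylase HDAC3, which removes acetyl groups from histones, and PPARα is a nuclear receptor of fatty acid oxidation that this complex can hold in check.

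The RNA libraries held 13194385 to 20086127 counted reads and the ChIP libraries, in units of 1000000, 7.902 to 46.107 tags. Tags are given as scaled tags, the number in 10000000. Together the 9 genes took 0.0103% of the RNA reads. *Gps2* itself was at 16.01 ± 0.719 CPM (counts in 1000000 reads; SD, n = 4) in WT and 11.2 ± 1.93 in LKO, a log2 fold change of -0.53 (SE 0.11, adjusted p = 0.0021). Of 12220 genes tested, 23.4% were called higher and 21.4% lower in LKO at an adjusted p below 0.05. LKO libraries differed from the WT mean in step with the exon length of the genes, with a Spearman correlation across genes of -0.503 in LKO1, -0.0386 in LKO2, -0.362 in LKO3 and -0.486 in LKO4, so each fold change of the 9 genes is also given after the length trend was removed. In H3K27ac of the *Smrt* line all 6 libraries had 0 tags in the 5 Y chromosome peaks and 918 to 1048 tags in the peak nearest *Xist*, against 1368 to 1518 and 12 to 22 in the *Ncor* line, so line and sex of the animals cannot be told apart between these lines. The study's methods state that all mice were male, and the tags of the *Smrt* line go against this.

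In LKO liver the mean RNA level was higher than in WT for 8 of the 9 genes, and *Ccl2* was the exception. The groups did not overlap for 6 genes (*Ccr2*, *Cx3cr1*, *Csf1r*, *Clec4f*, *Cd68* and *Mmp12*). Over all tested genes every LKO library lay above every WT library for 20.0%, and since the RNA values chose the members nothing is read from that count. The median log2 fold change of the 9 genes was 0.75, and 0.52 with the length trend removed, beside 0.03 over all tested genes. For the same reason nothing is read from the distance between these medians. All 9 genes passed the filter on low counts. On GRCm38, the build of the RNA table, *Ccl2* lies at chr11:82035577-82037452, *Pf4* at chr5:90772435-90773383, *Ccr2* at chr9:124102183-124109140, *Cx3cr1* at chr9:120048683-120068296, *Clec4f* at chr6:83644542-83656116, *Marco* at chr1:120474538-120505084, *Cd68* at chr11:69664213-69666170 and *Mmp12* at chr9:7344397-7360461, with *Csf1r* on chromosome 18. In whole liver RNA, a change in the number of cells of a type and a change in RNA per cell cannot be told apart.

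**Figure D1:**
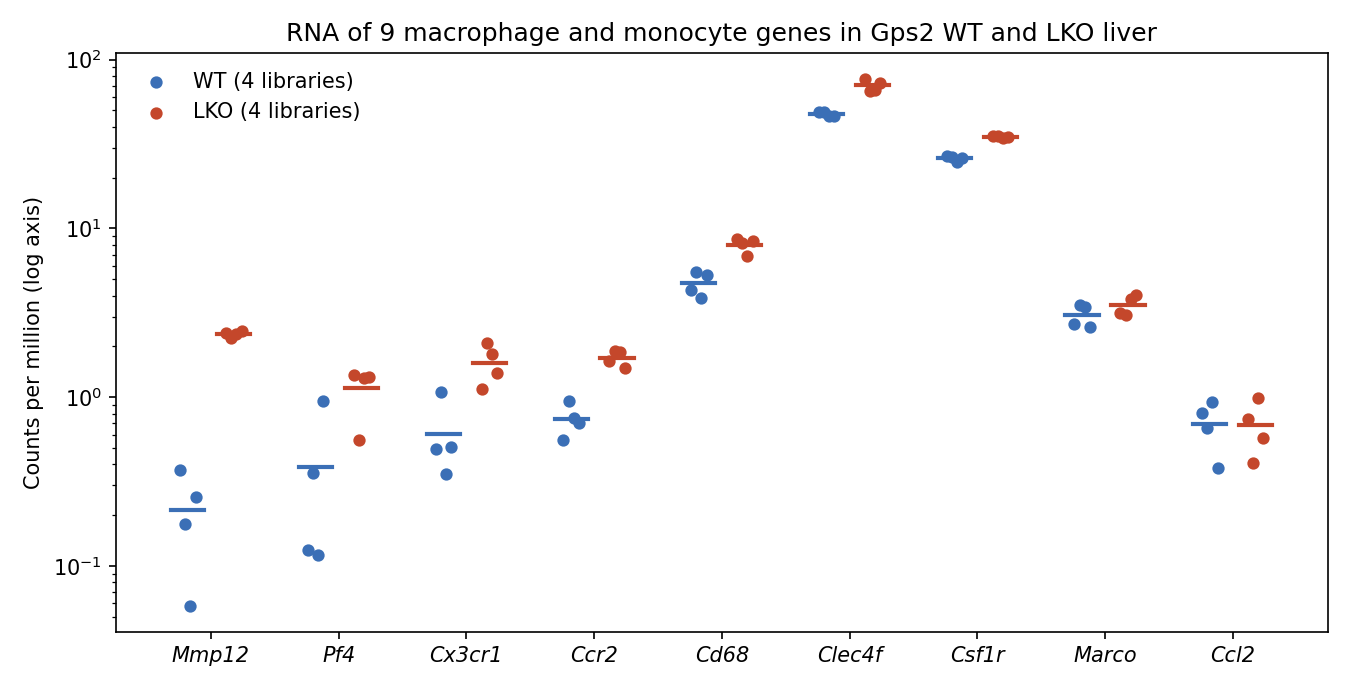
RNA level of the 9 genes in each library, in CPM on a log axis, for 4 WT (blue) and 4 LKO (red) livers, with bars at the group means. Mmp12 is at 0.0582 to 0.372 in WT and 2.24 to 2.47 in LKO, whereas the points of Ccl2 lie in the same range in both groups.

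Among the secreted ligands, *Ccl2*, the chemokine that draws CCR2-bearing monocytes, did not separate the groups. It was at 0.807, 0.654, 0.932 and 0.382 CPM in WT1 to WT4 and 0.747, 0.407, 0.991 and 0.576 in LKO1 to LKO4. The means were 0.694 ± 0.237 and 0.680 ± 0.249, the log2 fold change -0.06 (SE 0.35) and -0.37 with the length trend removed. *Pf4*, a chemokine stored in platelet granules and also made by some macrophages, was at 0.124, 0.357, 0.116 and 0.955 CPM in WT and 1.34, 0.560, 1.30 and 1.32 in LKO. Thus LKO1, LKO3 and LKO4 lay above the highest WT library, and LKO2 lay below WT4. The log2 fold change of *Pf4* was 1.50 (SE 0.50), 1.14 with the length trend removed and 2.40 without WT4, and it rests on 2, 6, 2 and 15 reads in WT and 18, 11, 21 and 16 in LKO.

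Both chemokine receptors separated the groups. *Ccr2*, the receptor of CCL2 on inflammatory monocytes, was at 0.558, 0.951, 0.757 and 0.701 CPM in WT and 1.64, 1.88, 1.86 and 1.48 in LKO, with every LKO library above every WT library. The log2 fold change was 1.21 (SE 0.22), a 2.32-fold difference, and it ranged from 1.10 to 1.36 when any library was left out. *Cx3cr1*, the receptor of fractalkine, was at 0.496, 1.07, 0.349 and 0.510 CPM in WT and 1.12, 2.09, 1.80 and 1.40 in LKO. Here WT2 and LKO1 almost met, and the log2 fold change was 1.43 (SE 0.32), with 1.23 to 1.85 when a library was left out. Neither receptor moved much with the length trend removed (1.25 and 1.47).

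*Csf1r*, the receptor of colony stimulating factor 1 and interleukin 34, differed less in size and hardly at all between libraries of a group. It was at 26.99, 26.5, 24.6 and 26.2 CPM in WT and 35.3, 35.4, 34.1 and 34.8 in LKO, a log2 fold change of 0.42 (SE 0.07). *Clec4f*, the Kupffer cell lectin, was at 48.8, 48.7, 46.3 and 46.3 CPM in WT and 76.4, 65.2, 66.2 and 73.1 in LKO. Its LKO libraries were all above the highest WT library, with a log2 fold change of 0.56 (SE 0.07). *Marco* was at 2.73, 3.51, 3.44 and 2.61 CPM in WT and 3.14, 3.05, 3.84 and 4.03 in LKO. The *Marco* groups overlapped, and the log2 fold change of 0.18 (SE 0.16) fell to 0.06 with the length trend removed.

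*Cd68*, a lysosomal glycoprotein used as a general macrophage marker, was at 4.34, 5.53, 3.84 and 5.29 CPM in WT and 8.66, 8.14, 6.88 and 8.40 in LKO. The groups did not overlap and the log2 fold change was 0.75 (SE 0.13), 0.52 with the length trend removed. *Mmp12*, the macrophage elastase that cleaves elastin and other matrix proteins, differed most of the 9. It was at 0.372, 0.178, 0.0582 and 0.255 CPM in WT, from 6, 3, 1 and 4 reads, and at 2.39, 2.24, 2.35 and 2.47 in LKO, from 32, 44, 38 and 30 reads. The log2 fold change was 3.42 (SE 0.30), a 10.7-fold difference, 3.46 with the length trend removed and 3.10 to 3.80 when a library was left out, and the WT reads are so few that its size is loosely set.

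**Figure D2:**
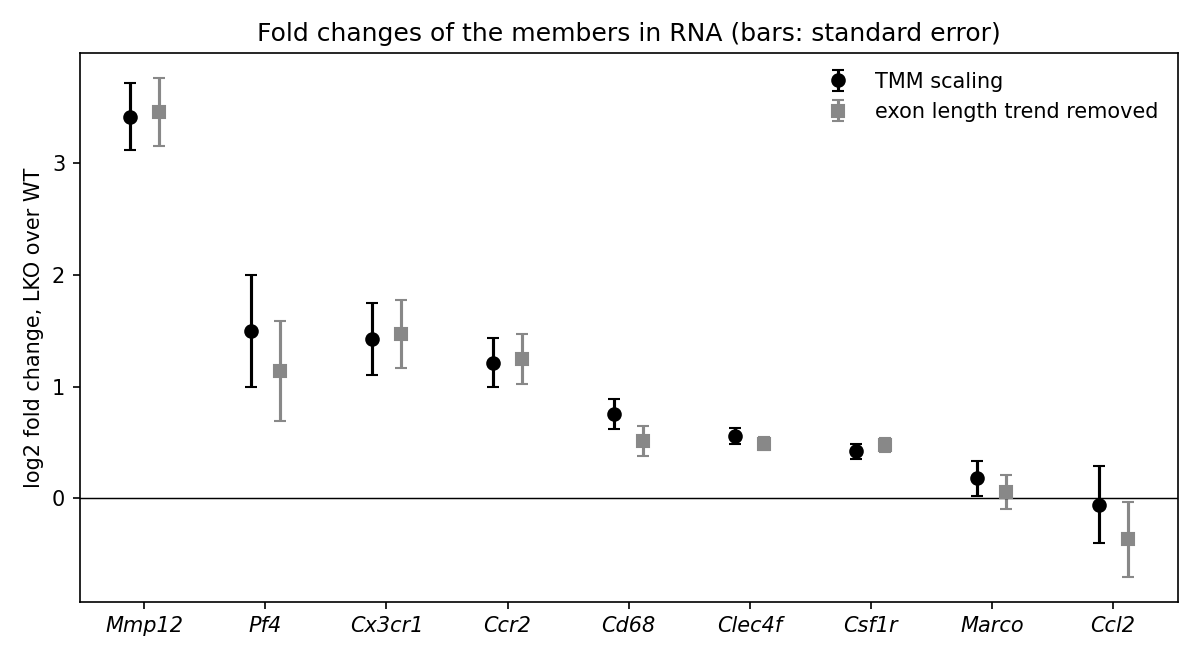
log2 fold change of LKO over WT in RNA for the 9 genes with TMM scaling (black) and with the exon length trend removed (grey), bars showing the standard error (4 against 4 libraries). Mmp12 stands at 3.42 and 3.46, while Ccl2 lies at -0.06 and -0.37.

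Per kilobase of exon, *Clec4f* was the most abundant of the 9 in WT with 19.8 ± 0.584 CPM per kb (SD, n = 4). It was followed by *Csf1r* (6.73 ± 0.263), *Cd68* (3.81 ± 0.635), *Marco* (1.55 ± 0.235), *Ccl2* (0.860 ± 0.294), *Pf4* (0.660 ± 0.671), *Ccr2* (0.207 ± 0.0453), *Cx3cr1* (0.162 ± 0.0846) and *Mmp12* (0.0583 ± 0.0356). From *Ccl2* downwards each neighbour overlapped the next in this order. In LKO the order began in the same way, with 29.3 ± 2.25 CPM per kb for *Clec4f*, 9.01 ± 0.150 for *Csf1r* and 6.43 ± 0.634 for *Cd68*. *Pf4* (1.92 ± 0.648) and *Marco* (1.77 ± 0.249) overlapped, as did *Ccl2* (0.844 ± 0.310) and *Mmp12* (0.638 ± 0.0260), and at the end *Ccr2* (0.478 ± 0.0528) and *Cx3cr1* (0.426 ± 0.114). The defining Kupffer cell gene was thus the highest in both groups, and the 2 monocyte receptors stayed below the macrophage genes *Clec4f*, *Csf1r*, *Cd68* and *Marco*.

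The promoters of *Mmp12* and *Pf4* are shown, the 2 genes with the largest log2 fold changes among the 9 under TMM scaling. With the length trend removed *Pf4* (1.14) came after *Cx3cr1* (1.47) and *Ccr2* (1.25). The windows of 300 bases span the annotated start and come from RefSeq on GRCm38.p6. Capitals mark GAGGAA, a core of PU.1-like sites (or TTCCTC on the other strand), AGGTCA, the nuclear receptor motif (or TGACCT), and TGANTCA, the AP-1 motif. *Mmp12* has 2 annotated starts, at chr9:7344147-7344446 (+ strand) and chr9:7347124-7347423 (+ strand), and the *Pf4* window is chr5:90772185-90772484 (+ strand).
Mmp12 upstream start: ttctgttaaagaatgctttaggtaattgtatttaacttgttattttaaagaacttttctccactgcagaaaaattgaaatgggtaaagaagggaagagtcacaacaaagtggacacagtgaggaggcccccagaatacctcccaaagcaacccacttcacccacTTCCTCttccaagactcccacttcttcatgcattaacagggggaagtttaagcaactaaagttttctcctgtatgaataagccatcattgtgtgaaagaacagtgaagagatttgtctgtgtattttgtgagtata
Mmp12 downstream start: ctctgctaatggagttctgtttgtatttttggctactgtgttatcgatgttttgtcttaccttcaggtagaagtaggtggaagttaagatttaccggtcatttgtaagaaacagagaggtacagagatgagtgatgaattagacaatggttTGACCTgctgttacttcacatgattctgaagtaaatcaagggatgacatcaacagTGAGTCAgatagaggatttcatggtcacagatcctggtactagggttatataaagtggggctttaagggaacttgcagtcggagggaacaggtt
Pf4: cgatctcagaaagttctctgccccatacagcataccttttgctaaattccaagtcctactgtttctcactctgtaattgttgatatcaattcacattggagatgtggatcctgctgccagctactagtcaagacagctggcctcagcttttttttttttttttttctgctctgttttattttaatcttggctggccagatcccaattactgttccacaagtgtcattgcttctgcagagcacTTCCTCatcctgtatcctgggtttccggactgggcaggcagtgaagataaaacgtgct
The upstream *Mmp12* window held 1 GAGGAA, the downstream one 1 AGGTCA and 1 TGANTCA, and the *Pf4* window 1 GAGGAA. Of the 32851 RefSeq promoters, 28.28% held GAGGAA, 16.26% AGGTCA and 7.808% TGANTCA on either strand, so single matches are common. Of the other promoters, *Cd68* held 2 GAGGAA and 2 TGANTCA, *Marco* 1 GAGGAA and *Clec4f* 1 AGGTCA, while the *Ccr2* and *Cx3cr1* windows held none of the 3 motifs. A match describes the letters of the window and shows no binding.

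Genes of the same cells that are not among the 9 were read from 16 lists of cell type and pathway genes, 154 genes in all, with the fit over the whole table. Of 18 macrophage and myeloid genes, 16 rose, 1 fell and 1 was not called, with a median log2 fold change of 0.72, and 15 rose with the length trend removed. The gene that fell, *Mpeg1*, which encodes the pore-forming protein perforin-2 of macrophages, went from 70.6 ± 0.604 to 38.0 ± 2.43 CPM (log2 -0.89, SE 0.07, adjusted p = 2.4e-07). *Cd14*, a receptor for bacterial lipopolysaccharide, rose from 1.02 ± 0.159 to 2.33 ± 0.468 CPM (log2 1.19, SE 0.21, adjusted p = 6.2e-04). *Lyz2*, the macrophage lysozyme, rose from 16.2 ± 1.40 to 31.0 ± 4.29 CPM (log2 0.93, adjusted p = 1.6e-05), *Fcer1g* by 0.93 and *Spi1*, which encodes PU.1, by 0.92 on the log2 scale. All 6 tested genes of lipid-associated macrophages rose, with a median of 0.96, and 5 rose with the length trend removed. *Trem2* rose from 0.364 to 1.07 CPM (log2 1.56, adjusted p = 0.0011), *Itgax* from 0.549 to 1.57 (log2 1.52), *Lgals3* by 1.06 and *Cd9* by 0.86 on the log2 scale. These counts stand beside 23.4% of all genes called higher.

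Only 3 of the 8 monocyte genes could be tested, and all 3 rose: *Plac8* from 4.18 to 8.22 CPM (log2 0.96, adjusted p = 1.1e-04), the integrin *Itgam* from 0.761 to 1.25 (log2 0.75, adjusted p = 0.047) and the Fc receptor *Fcgr1* from 1.82 to 2.60 (log2 0.52, adjusted p = 0.036). Of these 1 remained called by DESeq2, and 1 without WT2, without WT3 or without LKO3. *Ly6c2*, *S100a4*, *Vcan* and *F13a1*, markers of circulating monocytes, were below the filter on low counts, and the summed list was at 6.17 to 8.34 CPM in WT and 12.4 to 14.4 in LKO. Of 8 Kupffer cell genes 5 rose and 2 fell, with a median of 0.36. *Cd5l* rose from 37.6 to 51.7 CPM (log2 0.46, adjusted p = 4.8e-04), *Vsig4* by 0.40 and *Timd4* by 0.38, whereas *C6*, a complement gene that hepatocytes also express, fell from 456 to 216 CPM (log2 -1.08, adjusted p = 3.9e-09). *Cd163*, the scavenger receptor for haemoglobin and haptoglobin on macrophages, fell from 7.91 ± 1.23 to 6.27 ± 0.361 CPM (log2 -0.34, SE 0.12, adjusted p = 0.039), but was not called with the length trend removed (-0.24, adjusted p = 0.11). *Cd5l* also stayed called after that removal (0.33, adjusted p = 1.3e-04), whereas *Vsig4* (0.18, adjusted p = 0.12) and *Timd4* (0.28, adjusted p = 0.067) did not. In all, 2 Kupffer cell genes rose with the length trend removed, and 3 by DESeq2. The count fell to 1 without WT2, 3 without WT3 and 2 without LKO1 or without LKO4.

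The partners of the 9 genes moved unevenly. Of 15 tested genes of the chemokine and colony stimulating factor axis, 4 rose (*Cxcl14* from 1.99 to 5.62 CPM, log2 1.48, adjusted p = 1.7e-05, *Ccl6* by 0.84 and *Csf2ra* by 0.54, with *Cxcl16* as the fourth at 0.52), and the neutrophil chemokine *Cxcl1* fell from 13.4 to 6.14 CPM (log2 -1.14, adjusted p = 6.9e-06). The ligands of CSF1R and CX3CR1 were not called, with log2 fold changes of -0.16 for *Csf1*, 0.62 for *Il34* and 0.73 for *Cx3cl1*. Of 8 tested metalloproteinase genes and inhibitors 5 rose and 2 fell. Among those that rose were *Mmp23* (log2 0.90), *Mmp2* (0.87), *Mmp14* (0.75) and the inhibitor *Timp2* (0.59). Those that fell were *Mmp19* (from 82.6 to 67.6 CPM, log2 -0.29, adjusted p = 0.0016) and *Mmp15* (from 81.4 to 62.2 CPM, log2 -0.38, adjusted p = 0.0052), and the median sum of the list was 261 CPM in both groups.

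Markers of other cell types moved as well. All 9 stellate cell genes rose, with a median log2 fold change of 0.82 and a summed level of 161 to 172 CPM in WT and 288 to 304 in LKO, for example *Colec11* (0.97), *Acta2* (0.93), *Dcn* (0.86) and *Rgs5* (0.84). Of 11 sinusoidal endothelium genes 4 rose (*Emcn*, *Clec4g*, *Oit3* and *Pecam1*, by 0.25 to 0.57), and 7 with the length trend removed. Of 3 tested B cell genes 2 rose (*Blnk* by 1.24 and *Cd22* by 1.05), and of 4 cholangiocyte genes 2 rose (*Krt19* and *Epcam*). In hepatocyte genes 4 of 8 rose, among them *Ttr* and *Alb*, and *Hnf4a* fell (log2 -0.41). Of the erythroid genes, *Hbb-b1* and *Hba-a1* rose and *Alas2* fell (log2 -1.10), and only the fall remained with the length trend removed. The 1 tested platelet gene, *Itga2b*, was not called (log2 0.27, adjusted p = 0.23), with the summed platelet list at 2.30 to 3.18 CPM in WT and 2.95 to 3.88 in LKO. Nor were the neutrophil genes *Ly6g* (0.11) and *Csf3r* (0.05) or the dendritic cell genes *Clec9a* (0.17) and *Zbtb46* (-0.15), while *Cd4* in the T and NK cell list fell (log2 -0.86, adjusted p = 0.0082). The part of these other cell types in the values of the 9 genes was not tested.

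**Figure D3:**
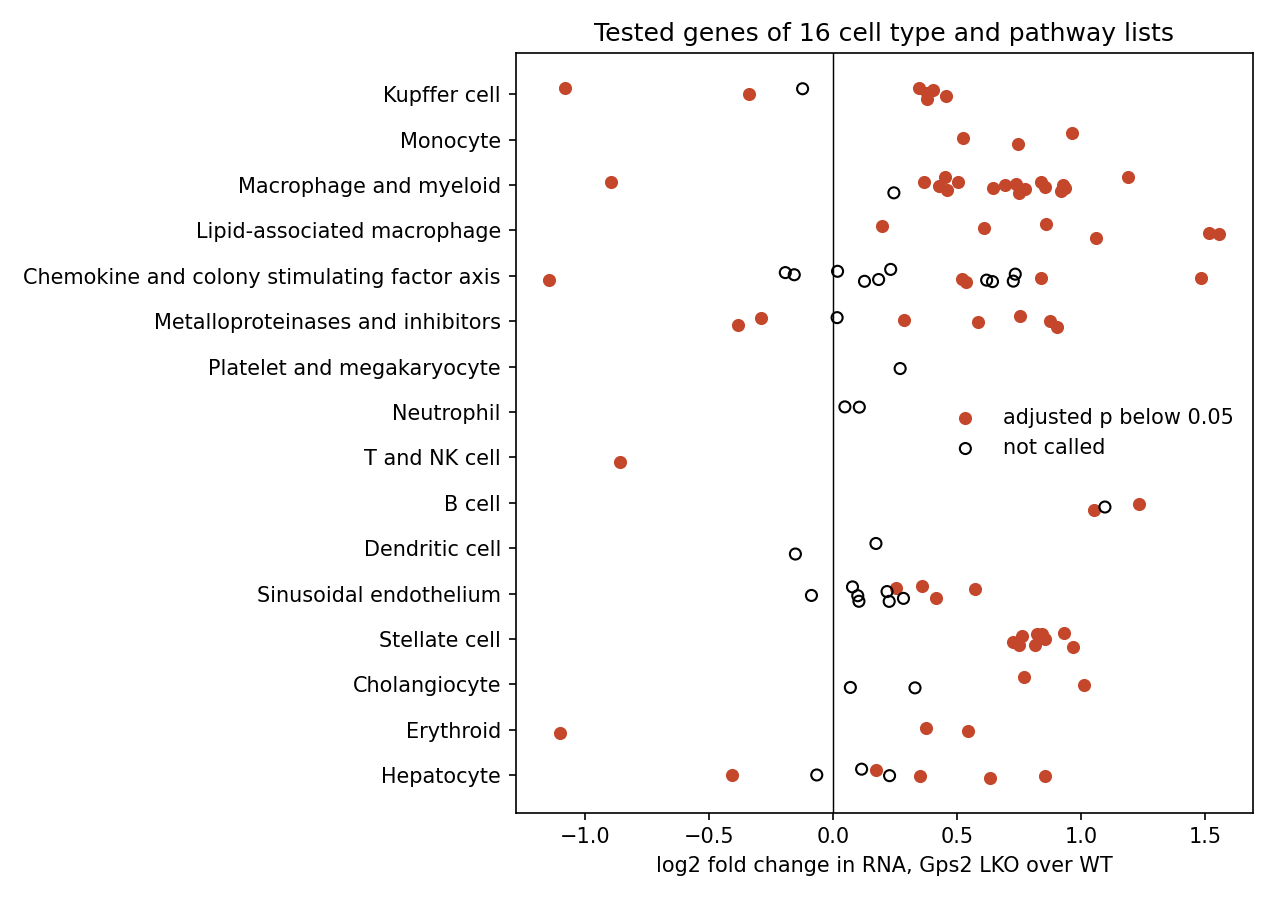
log2 fold change of LKO over WT for each tested gene of 16 lists, with filled points for genes called at an adjusted p below 0.05 and open points for the others. All 6 tested genes of lipid-associated macrophages and all 9 stellate cell genes lie to the right of 0, whereas Kupffer cell genes lie on both sides.

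Within the groups, the 9 genes were averaged as standardized deviations from the group means and compared with 11609 other genes over the 8 libraries. The 5 most alike were *Rpusd1* (Pearson's r = 0.93), *Serpinh1* (0.92), *Ctf1* (0.92), *Tmem86a* (0.92) and *Enoph1* (0.92), with Spearman's rho of 0.74 to 0.90. These values describe 8 libraries that also differ in depth. Picking the top of 11609 genes favours high correlations, and no test was made.

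In chromatin of the *Gps2* line, GPS2 was bound near 5 of the 9 genes, with 10 peaks. The peak with the most tags lay at -15.6 kb from the *Ccl2* start, between genes, at chr11:81833456-81833592 (NCBIM37, the build of the ChIP files). Distances are from the start of the gene to the centre of the peak, with negative values upstream. Its sequence on the + strand is shown because peaks of GPS2, NCOR, PPARα and H3K27ac all covered this place, with the AGGTCA motif in capitals.
Ccl2 -15.6 kb peak: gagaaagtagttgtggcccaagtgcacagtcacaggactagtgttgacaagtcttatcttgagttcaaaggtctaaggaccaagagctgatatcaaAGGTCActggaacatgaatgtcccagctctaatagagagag
AGGTCA occurred in 23.85% of all GPS2 peaks of this table. The deletion was seen at the peaks: with 1 library per group, the *Ccl2* -15.6 kb peak had 33 tags in WT and 2 in LKO, a depth-scaled ratio of 15.7 (95% interval 4.03 to 135, counting error only). Peaks with 0 tags in LKO were the 3′ end of *Cx3cr1* at 19.7 kb (25 tags in WT, at least 7.95-fold lower at a floor of 3 tags per library), the exon of *Csf1r* at 4.8 kb (16 tags, at least 5.09-fold), *Ccl2* at -20.3 kb (16 tags, at least 5.09-fold) and *Clec4f* at 21.9 kb (9 tags, at least 2.86-fold). With the counting error of the WT tags included, the lower 95% limits of these 4 ratios were 6.00, 3.68, 3.68 and 1.88. The *Pf4* promoter had 10 tags in WT and 1 in LKO, a ratio of 9.54 (1.36 to 414). At a floor of 3 tags in LKO, all 10 peaks were at least 2-fold lower, and so were 98.8% of all GPS2 peaks. With counting error included this does not hold for each peak. *Ccl2* at -28.6 kb, for example, had 9 tags in WT and 2 in LKO, a ratio of 4.29 (0.889 to 40.8).

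RNA polymerase II, also with 1 library per group, was found near *Ccl2*, *Clec4f* and *Csf1r*, with 9 peaks. At the *Ccl2* start it had 36 tags in WT and 35 in LKO (WT over LKO 1.05, interval 0.640 to 1.72) and at the *Clec4f* start 24 and 24 tags (1.02, 0.555 to 1.88). At the *Csf1r* start it had 23 and 13 tags (1.81, 0.877 to 3.88). Of the 9 peaks, 1 at the 3′ end of *Clec4f* was at least 2-fold lower (25 and 11 tags, 2.32, 1.10 to 5.22), beside 5.93% of all peaks. At neither start were more tags counted in LKO than in WT, and differences within the intervals were not detectable at this depth.

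The active marks near the 9 genes were not called different between *Gps2* LKO and WT. Of 29 peaks near 8 genes, 17 overlapped called H3K27ac peaks and were tested, and 0 were called by edgeR, with 2 at an unadjusted p below 0.05 and 0 by DESeq2, beside 1.42% of all peaks called. The H3K27ac peak centred in the *Csf1r* intron at 3.2 kb was broad and also covered the start of the gene. It was at 188 and 199 scaled tags in WT and 221 and 302 in LKO, both above WT, with a log2 fold change of 0.43 (SE 0.15, adjusted p = 0.21). The peak centred in the *Clec4f* intron at 5.3 kb likewise covered the start of that gene. It had 266 and 293 in WT and 280 and 417 in LKO, which overlapped (log2 0.32, SE 0.17, adjusted p = 0.45). In both peaks LKO2 lay above LKO1, so the size of these differences turns on 1 library. Leaving out either LKO library leaves 1 in the group, and no call is read from such a fit. Summed over peaks, *Ccl2* was at 386 ± 0.235 and 427 ± 51.5 scaled tags (SD, n = 2 each, log2 0.15, SE 0.10) and *Ccr2* at 48.9 ± 6.42 and 61.1 ± 9.22 (log2 0.32, SE 0.17). Those of *Pf4* (log2 -0.15, SE 0.27) and *Cx3cr1* (-0.30, SE 0.21) were below 0. Only tested peaks entered the sums. For *Ccr2* these were the peaks at -34.0 and -31.1 kb, without the untested peak at 0.9 kb, and for *Cx3cr1* only the peak at 20.3 kb. In these sums 0 of 6 genes were called by edgeR (1 at an unadjusted p below 0.05, 0 by DESeq2), beside 1.84% of all genes.

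H3K4me3, the mark of active promoters, was tested in 6 peaks and 0 were called by edgeR (0 at an unadjusted p below 0.05, 0 by DESeq2), beside 0.916% of all peaks. *Csf1r* was at 157 and 150 scaled tags in WT and 154 and 244 in LKO (log2 0.37, SE 0.19) and *Clec4f* at 195 and 245 in WT and 232 and 323 in LKO (0.34, SE 0.16). The *Ccl2* start was at 14.3 and 10.4 in WT and 17.9 and 20.2 in LKO (0.62, SE 0.32, adjusted p = 0.69), and the *Pf4* promoter at 31.5 and 21.5 in WT and 24.2 and 23.9 in LKO (-0.14, SE 0.29). Of 4 gene sums 0 were called by edgeR (0 at an unadjusted p below 0.05, 0 by DESeq2), beside 1.08% of all genes. *Mmp12* had 1 peak, at -7.2 kb, which overlapped no called peak of either mark in 2 or more libraries and was not tested. *Cd68* lies within a peak annotated to its neighbour *Mir1934*, at 386 and 408 scaled tags of H3K27ac in WT and 446 and 460 in LKO, and at 372 and 367 of H3K4me3 in WT and 423 and 452 in LKO. The peak spans several genes, so its tags cannot be assigned to *Cd68*.

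NCOR, the corepressor to which GPS2 binds, had 14 peaks near 6 of the 9 genes in the *Gps2* line, and 0 were called by edgeR (1 at an unadjusted p below 0.05, 0 by DESeq2), beside 0.0173% of all peaks. At *Ccl2* -15.6 kb it was at 58.8, 57.5 and 34.8 scaled tags in WT and 53.0, 59.1 and 26.6 in LKO, with a log2 fold change of -0.12 (95% interval -0.99 to 0.74). At the *Csf1r* exon it was at 33.5, 37.2 and 23.8 in WT and 57.3, 52.9 and 31.5 in LKO (log2 0.58, -0.30 to 1.47). The *Pf4* promoter was at 11.3, 14.2 and 4.64 in WT and 7.98, 11.3 and 6.51 in LKO (log2 -0.23, -1.19 to 0.73). Nor was any of 6 gene sums called by edgeR (0 at an unadjusted p below 0.05, 0 by DESeq2), beside 0.0295% of all genes. These intervals are wide, and a difference of the size of the *Csf1r* value was not detectable here.

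Scaled to total tags, PPARα was higher in *Gps2* LKO than in WT at peaks of *Csf1r*, *Ccl2* and *Cx3cr1*. The 3 WT libraries differed by less than the sampling noise (chi-square per degree of freedom 0.877 to 0.887, against at least 1.11 in other pairs) and were counted as 1 sample against 3 LKO libraries. The spread in this fit therefore comes from the LKO libraries alone, the WT sample is assumed to vary as they do, and the adjusted p-values of this comparison hold only under that assumption. The table as a whole was shifted by 0.62 on the log2 scale, and 21.5% of its peaks were called higher. Of the 15 peaks near 5 of the 9 genes, 7 were called higher, none of them with TMM scaling, which removes the shift, and 2 by DESeq2. In the *Csf1r* exon at 4.7 kb the WT libraries had 15.2, 32.3 and 18.04 scaled tags and the LKO libraries 85.0, 54.9 and 52.8, a log2 fold change of 1.46 (SE 0.28, adjusted p = 4.7e-05), or 0.84 above the table's median. The *Csf1r* intron at 3.0 kb went from 15.2, 21.8 and 19.2 to 60.9, 48.3 and 53.9 (log2 1.50, SE 0.30, adjusted p = 6.7e-05), 0.89 above the median. These 2 peaks stayed called without LKO3, where the other 5 did not.

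*Ccl2* gave 4 of the called peaks, with log2 fold changes of 0.67 at -15.5 kb, 0.84 at -24.3 kb, 1.33 at -20.5 kb and 0.99 at -20.2 kb. Relative to the median of the table these were 0.05, 0.22, 0.72 and 0.38. At -15.5 kb the WT libraries had 49.4, 48.4 and 60.9 scaled tags and the LKO libraries 94.2, 80.5 and 78.6 (adjusted p = 0.038). *Cx3cr1* had 1 called peak at 20.9 kb, with 0, 4 and 0 tags in WT and 4, 13 and 10 in LKO (log2 2.30, SE 0.89, adjusted p = 0.047), while its peak with the most tags, at 19.7 kb, was at 78.5, 80.7 and 65.4 scaled tags in WT and 118, 81.5 and 64.5 in LKO (log2 0.19, SE 0.24). *Pf4* (0.42, SE 0.60) and *Marco* (-0.27, SE 0.59) were not called. Summed over its peaks, *Csf1r* went from 56.8 scaled tags to 145 ± 25.4 (log2 1.33, SE 0.20, adjusted p = 6.0e-09) and was also called with TMM scaling (0.77, adjusted p = 0.0063). *Ccl2* went from 163 to 260 ± 4.86 (log2 0.67, SE 0.17, adjusted p = 5.6e-04), but with TMM scaling the value was 0.11 (adjusted p = 0.77). Of all genes 58.1% were called higher in these sums.

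**Figure D4:**
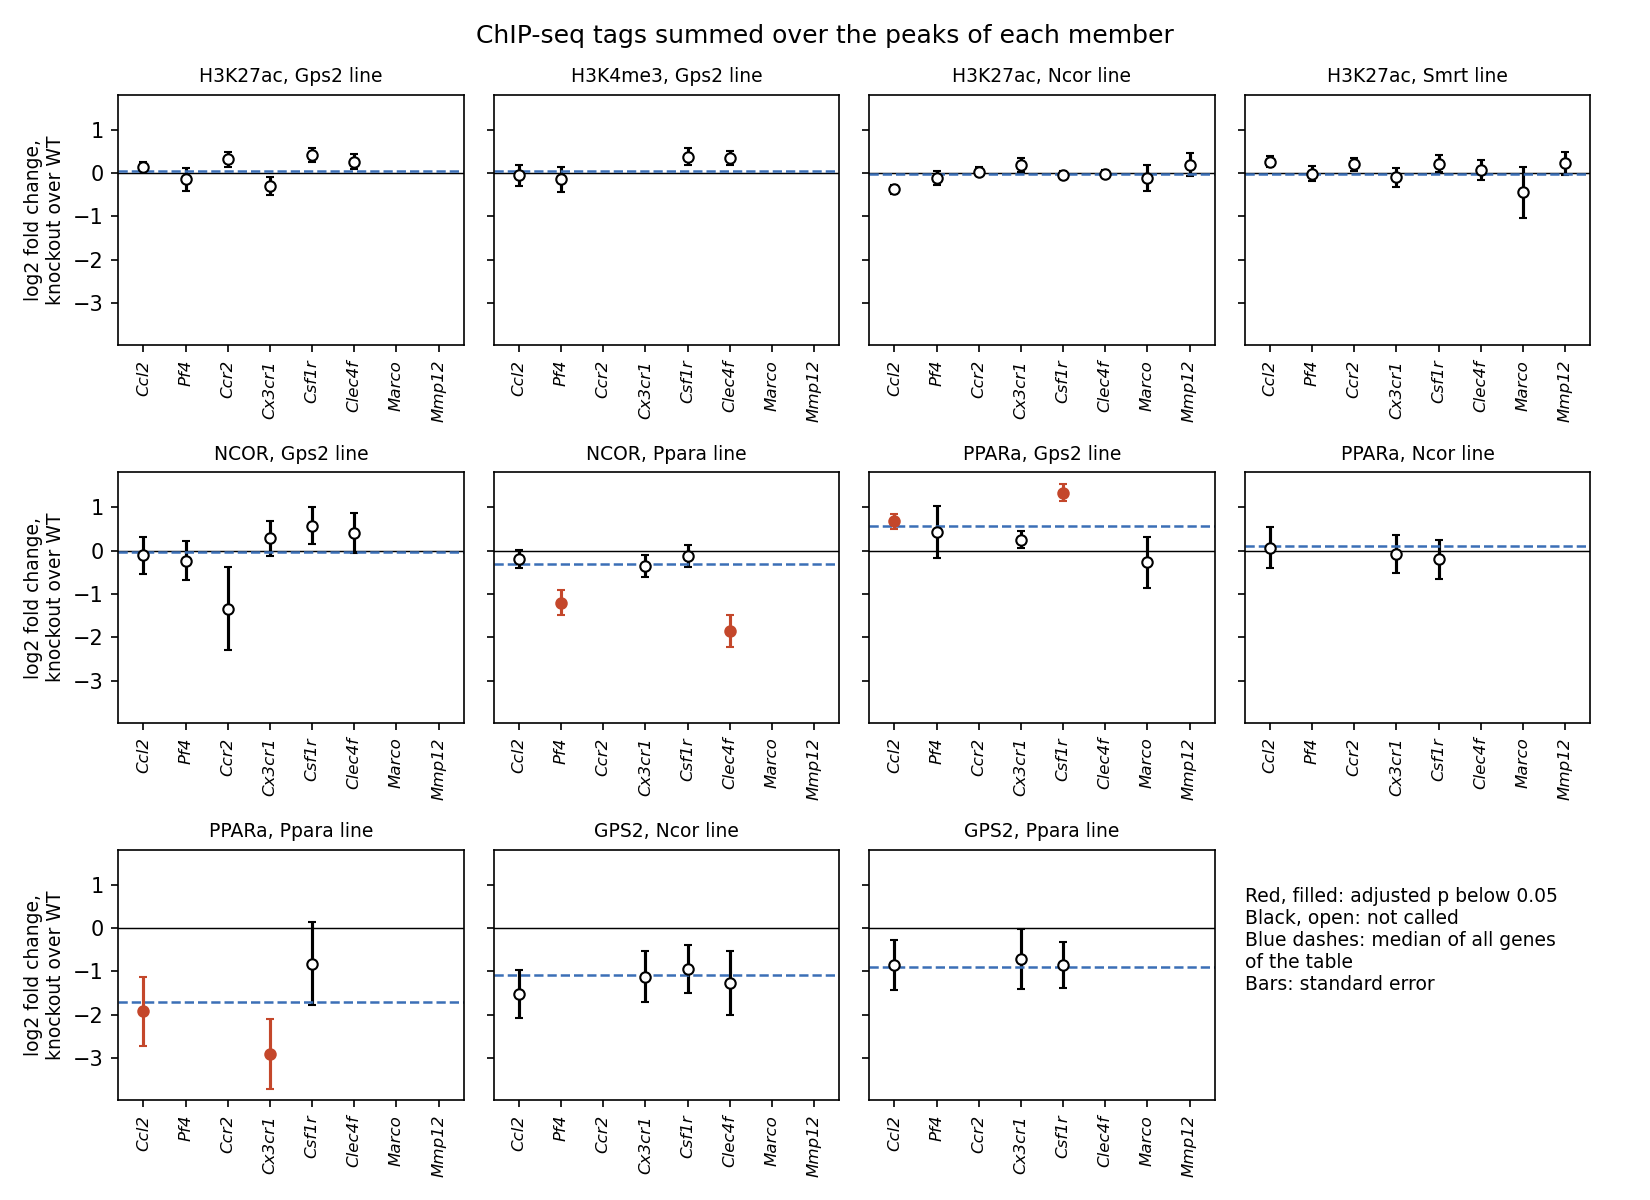
log2 fold change, knockout over WT, of ChIP tags summed over the peaks of each gene in 11 comparisons, with bars for the standard error, red filled points for an adjusted p below 0.05 and a blue dashed line at the median of all genes of the table. Called points are Pf4 and Clec4f for NCOR in Ppara KO, Ccl2 and Csf1r for PPARα in Gps2 LKO, and Ccl2 and Cx3cr1 for PPARα in Ppara KO.

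In *Ppara* KO livers, and scaled to total tags, NCOR fell at the *Pf4* promoter and at peaks downstream of the *Clec4f* start. Of 18 peaks near 5 of the 9 genes 3 were called lower, beside 2.51% of all peaks, and the median of the table was -0.32. The *Clec4f* peak at 22.0 kb, chr6:83584042-83584227 (NCBIM37), is shown on the + strand, with AGGTCA and TTCCTC, the reverse of GAGGAA, in capitals.
Clec4f 22.0 kb peak: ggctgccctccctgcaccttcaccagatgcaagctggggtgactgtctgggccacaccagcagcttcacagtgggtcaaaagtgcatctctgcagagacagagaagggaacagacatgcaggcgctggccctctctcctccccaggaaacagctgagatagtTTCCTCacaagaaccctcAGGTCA
Of all NCOR peaks in this comparison, 26.56% held AGGTCA and 16.71% GAGGAA. The WT libraries had 14.6, 16.3 and 12.6 scaled tags here and the KO libraries 8.99, 4.04 and 0, a log2 fold change of -1.77 (SE 0.45, adjusted p = 0.0080), or -1.45 relative to the median. The *Clec4f* peak at 36.8 kb went from 10.6, 14.6 and 9.27 to 5.72, 2.02 and 1.42 (log2 -1.93, SE 0.52, adjusted p = 0.014). The *Pf4* promoter went from 30.1, 32.7 and 36.2 to 16.3, 16.8 and 9.96 (log2 -1.19, SE 0.34, adjusted p = 0.025). The groups did not overlap at any of the 3, yet none was called with TMM scaling, by DESeq2, without WT1 or without KO3, the *Pf4* peak also not without WT3 or KO1, and the peak at 36.8 kb not without WT2 or KO2. The *Clec4f* log2 values were -2.76 at 22.0 kb and -2.66 at 36.8 kb without KO1, and -1.19 at 22.0 kb without KO3.

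Summed over peaks, with 5.83% of all genes called lower, NCOR near *Clec4f* fell from 26.0 ± 4.58 to 7.40 ± 6.75 scaled tags (SD, n = 3 each, log2 -1.85, SE 0.36, adjusted p = 4.6e-05), and with TMM scaling by 1.57 (adjusted p = 0.022). It was not called by DESeq2, and its size turned on KO1, without which the log2 value was -2.75 (-1.36 to -2.75 over all libraries left out in turn). Near *Pf4* it fell from 36.9 ± 4.86 to 16.0 ± 4.42 (log2 -1.20, SE 0.30, adjusted p = 0.0032), which was not called without WT3. The other 3 genes were not called, with log2 values of -0.20 for *Ccl2*, -0.35 for *Cx3cr1* and -0.13 for *Csf1r*. At *Ccl2* -15.6 kb, the place of the GPS2 peak, NCOR was at 107, 95.5 and 120 scaled tags in WT and 110, 106 and 85.4 in KO (log2 -0.10, 95% interval -0.46 to 0.26).

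PPARα itself, tested with 2 WT and 2 KO libraries, is the deleted protein here: the table fell by a median of 1.68 on the log2 scale, and 27.6% of peaks were called lower. Of the 3 peaks near the 9 genes, 1 was called, at the 3′ end of *Cx3cr1* (chr9:119957620-119957837), with 7.79 and 9.18 scaled tags in WT and 2.06 and 0 in KO (log2 -2.90, SE 0.88, adjusted p = 0.023). It was not called with TMM scaling. Leaving out a library leaves 1 in its group, and the log2 value then ran from -6.54 to -1.99. *Ccl2* at -15.6 kb had 7.79 and 6.12 in WT and 0 and 3.66 in KO (log2 -1.91, SE 0.90, adjusted p = 0.12), and *Csf1r* 2.12 and 3.06 in WT and 0 and 2.93 in KO (log2 -0.82, adjusted p = 0.54). As sums over each gene, *Cx3cr1* (adjusted p = 0.0031) and *Ccl2* (adjusted p = 0.041) were called, beside 56.8% of all genes, and neither with TMM scaling or by DESeq2. With a library left out, the log2 values of the sums ran from -6.54 to -1.99 for *Cx3cr1* and from -6.30 to -0.91 for *Ccl2*. *Csf1r*, at which PPARα was higher in *Gps2* LKO, had at most 4 tags per library here.

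GPS2 binding near the 9 genes was lower in mean but was not called in *Ppara* KO or in *Ncor* LKO. In *Ppara* KO, 0 of 4 peaks were called by edgeR (0 at an unadjusted p below 0.05, 0 by DESeq2), beside 0.273% of all peaks, and the median of the table was -0.93. *Ccl2* at -15.6 kb had 9.02, 7.80 and 11.5 scaled tags in WT and 6.55, 6.81 and 2.16 in KO (log2 -0.86, SE 0.62, adjusted p = 0.32). Of 3 gene sums 0 were called by edgeR (0 at an unadjusted p below 0.05, 0 by DESeq2), beside 0.439% of all genes. In *Ncor* LKO, 0 of 8 peaks were called by edgeR (2 at an unadjusted p below 0.05, 1 by DESeq2), beside 0.0338% of all peaks, with a median of -1.12. Here *Ccl2* at -15.6 kb had 24.9, 24.9 and 8.04 in WT and 5.42, 7.09 and 5.19 in LKO, with no overlap (log2 -1.69, SE 0.65, adjusted p = 0.087), and WT3 lay far below the other WT libraries. Without WT3, 5 of the 8 peaks and all 4 gene sums were called. That fit called 33248 of all 56277 peaks and 10748 of all 14433 genes lower, so most of the table was called there. With all libraries 0 gene sums were called by edgeR (1 at an unadjusted p below 0.05, 1 by DESeq2), beside 0.187% of all genes. PPARα in *Ncor* LKO was not called at any of 11 peaks by edgeR (0 at an unadjusted p below 0.05, 0 by DESeq2), beside 0.196% of all peaks. At *Ccl2* -15.6 kb it was at 61.1, 43.2 and 22.8 in WT and 35.9, 32.5 and 62.0 in LKO (log2 0.04, 95% interval -0.91 to 0.99), and 0 of 3 gene sums were called by edgeR (0 at an unadjusted p below 0.05, 0 by DESeq2), beside 0.104% of all genes.

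H3K27ac in the *Ncor* and *Smrt* lines was measured over the same 33 peaks near 8 of the 9 genes, with 3 WT and 3 LKO libraries each. In *Ncor* LKO 0 were called by edgeR (3 at an unadjusted p below 0.05, 0 by DESeq2), beside 3.12% of all peaks, and in *Smrt* LKO 0 (1 at an unadjusted p below 0.05, 0 by DESeq2), beside 0% of all peaks. The 3 peaks upstream of *Ccl2* had the lowest log2 fold changes near the gene in *Ncor* LKO. At -19.9 kb, WT was at 70.5, 85.3 and 61.3 scaled tags and LKO at 50.4, 51.0 and 53.4, without overlap (log2 -0.49, adjusted p = 0.14), and the values were -0.51 at -24.4 kb and -0.47 at -15.9 kb. In *Smrt* LKO the 3 values were above 0 (0.64 at -24.4 kb and 0.52 at -15.9 kb), with 24.8, 22.3 and 17.1 in WT and 45.5, 26.8 and 26.5 in LKO at -19.9 kb (log2 0.62, adjusted p = 0.84).

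The difference between both effects, tested in 1 fit of 12 libraries, was -1.11 (SE 0.30, adjusted p = 0.14) at -19.9 kb, -1.15 (SE 0.38, adjusted p = 0.25) at -24.4 kb and -0.98 (SE 0.31, adjusted p = 0.22) at -15.9 kb, and 0 of 33 peaks were called by edgeR, beside 0.426% of all peaks. Summed over peaks, *Ccl2* was at 473 ± 53.9 in WT and 364 ± 17.1 in *Ncor* LKO (log2 -0.38, SE 0.10, adjusted p = 0.091) and at 265 ± 13.2 and 317 ± 62.3 in the *Smrt* line (0.26, SE 0.13, adjusted p = 0.74). The *Ncor* value was called by DESeq2, while edgeR called 0 of 8 gene sums in *Ncor* LKO (1 at an unadjusted p below 0.05), beside 3.0% of all genes, and 0 of 8 in *Smrt* LKO (0 at an unadjusted p below 0.05, 0 by DESeq2), beside 0%. The other 7 genes were not called in either line, with log2 fold changes from -0.12 to 0.19 in *Ncor* LKO and from -0.45 to 0.22 in *Smrt* LKO. *Clec4f*, for example, was at 608 ± 46.0 in WT and 596 ± 26.7 in *Ncor* LKO (-0.03) and at 685 ± 242 and 719 ± 21.1 in the *Smrt* line (0.07).

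**Figure D5:**
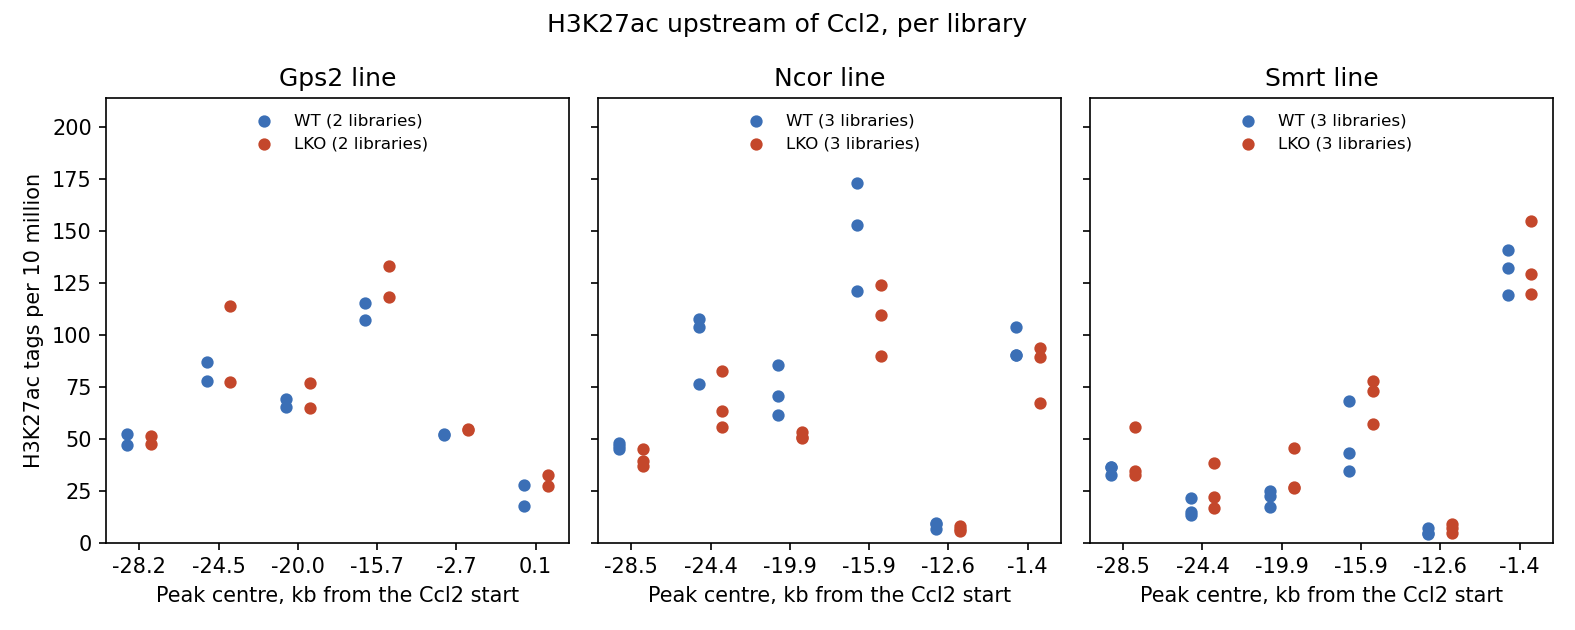
H3K27ac scaled tags (in 10000000) in each library at peaks from upstream to the start of Ccl2, by distance in kb from the start, for the Gps2, Ncor and Smrt lines with WT in blue and LKO in red. At -19.9 kb the Ncor LKO libraries (50.4 to 53.4) lie below all WT libraries of that line (61.3 to 85.3), and the Smrt WT libraries are at 17.1 to 24.8.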

How the data were processed

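RNA of mouse liver was sequenced as polyA libraries, and chromatin of liver was immunoprecipitated for H3K27ac, H3K4me3, GPS2, NCOR, PPARα or RNA polymerase II. The authors aligned reads to mm9 with HISAT2 (RNA) or Bowtie (ChIP) and called peaks with HOMER, according to the study's methods, whereas the deposited RNA table carries GRCm38 gene coordinates and the submitters' processing notes also list featureCounts, mm10 and GRCm38. The deposited values used here are raw counts of reads per gene and of tags per peak, the latter in peaks merged over libraries. The authors' own columns of log2 fold changes, p-values and scores were not used. Each ChIP library pooled several immunoprecipitations. The labels name a double crosslink for ChIP and the methods formaldehyde alone for histone marks.

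Groups were compared with edgeR 4.0.16 in R 4.3.3 (quasi-likelihood test, Benjamini-Hochberg adjustment over the whole table, threshold 0.05). RNA used TMM scaling and filterByExpr, and CPM values are TMM-scaled. ChIP used the total tags in the file headers as library sizes, every peak with at least 1 tag, and also tags summed per nearest gene. H3K27ac and H3K4me3 of the *Gps2* line shared 1 table, and a peak was tested for a mark where it overlapped called peaks of that mark in at least 2 of 4 libraries. Intervals of single libraries are exact 95% intervals of counts, covering counting error only, with a floor of 3 counts. The exon length trend was removed by loess with a span of 0.5. Alternatives were DESeq2 1.42.0, other scalings and filters, only peaks within 10 kb of the start, each library left out, and the replicate number as a block. Correlations between same-numbered samples ran from -0.15 to 0.27, and no comparison with 3 or more pairs had all above 0.1, so the numbers were not taken to pair samples. The edgeR fits were tested on simulated counts with a dispersion of 0.05, and the other steps were not. Of features changed by 1 on the log2 scale, 76% were recovered in RNA and 0 to 39% in the ChIP comparisons. At a change of 2 these were 100% in RNA and 1 to 100% in ChIP. For H3K27ac in *Gps2* LKO the shares were 12% and 94%. A peak that was not called can therefore still have changed. The 9 genes and the lists were chosen with earlier results of these data known, and 1 gene of the lists is not reported here. Text names all 9 genes, per list at most 4 called genes with the largest log2 fold changes (or the most abundant where none was called), and per gene and table the peak nearest the start, the peak with most tags and called peaks. *Cxcl16*, the ligands *Csf1*, *Il34* and *Cx3cl1*, the sum of the *Mir1934* peak and further peaks of *Ccl2* and *Clec4f*, and *Mpeg1*, *Cd163*, *Mmp15* and *Mmp19*, were named after their values were seen. Sequences of promoters are from RefSeq (GRCm38.p6), which held 7 of the 9 genes, and those of peaks from NCBIM37.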

Additional observations from a re-analysis of the deposited data

Results flagged for a closer look

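The *Pf4* level of LKO2 was 0.560 CPM, far from the other 3 LKO libraries at 1.30 to 1.34 CPM: its gap to the nearest, divided by the range of the group, was 0.945, above the limit of 0.829 for 4 samples. The rule sets libraries of 1 group against each other and compares no groups. It was applied to 18 groups of RNA values (9 genes in 2 groups) and marked 1, and chance marks about 1 in 20 groups. In reads, LKO2 had 11 and the others 16 to 21. LKO2 was also the library whose difference from WT had the weakest correlation with exon length (-0.0386), and the part of this in the *Pf4* value was not tested.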

How the results depend on the processing

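No result on the 9 genes or the lists turned its direction past a threshold. Over a whole table, the balance of calls for GPS2 in *Ncor* LKO did turn with TMM scaling, as given below. In RNA, the Kupffer cell genes called higher numbered 5, and 3 by DESeq2, 2 with the length trend removed and 1 to 5 when a library was left out, and those called lower 2, with 1 to 2. The monocyte count of 3 became 1 by DESeq2 and ranged from 1 to 3. The median of the 9 genes became 0.52 with the length trend removed. All calls in RNA (5477) ranged from 4365 to 6970 when a library was left out.

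Of ChIP peaks near the 9 genes, the 3 calls for NCOR in *Ppara* KO became 0 with TMM scaling, 0 by DESeq2, 1 within 10 kb and 0 to 2 when a library was left out. The 7 for PPARα in *Gps2* LKO became 0, 2, 2 and 2 to 7, and 8 with the WT libraries as separate samples. The 1 for PPARα in *Ppara* KO became 0 with TMM scaling and 0 within 10 kb. Fits within 10 kb hold no peak beyond that distance, also in the gene sums. The called peaks of *Cx3cr1*, *Ccl2* and *Clec4f* all lie farther out and drop out there untested. Their absence from the counts within 10 kb was therefore fixed in advance. Where both groups had 2 libraries, leaving 1 out leaves 1 in its group, and no count of calls is given for such fits. For GPS2 in *Ncor* LKO 0 became 1 by DESeq2 and 0 to 5 when a library was left out. The cause of these changes was not tested. Of gene sums, NCOR in *Ppara* KO had 2 calls, 1 by DESeq2, 1 within 10 kb and 1 to 2 when a library was left out. PPARα in *Gps2* LKO had 2, with 1 under TMM scaling and 1 within 10 kb. PPARα in *Ppara* KO had 2, with 0 under TMM scaling, 0 by DESeq2, 1 with a filter on low counts and 0 within 10 kb. H3K27ac in *Ncor* LKO had 0, and 1 by DESeq2. GPS2 in *Ncor* LKO had 0, 1 by DESeq2 and 0 to 4 when a library was left out.

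With the replicate number as a block, which the data do not show to pair samples, RNA calls were 5738. Member peaks called became 1 for H3K27ac in *Gps2* LKO, 0 for PPARα in *Ppara* KO and 1 for GPS2 in *Ncor* LKO, and gene sums 1 for PPARα in *Ppara* KO and 1 for GPS2 in *Ncor* LKO.

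Over whole tables, counts of peaks called higher and lower moved with the scaling, the tool or 1 library. For PPARα in *Gps2* LKO they were 22086 and 151, with TMM scaling 560 and 441 and by DESeq2 1745 and 1. For PPARα in *Ppara* KO they were 7 and 11112, then 144 and 986, and 0 and 6969. For NCOR in *Ppara* KO they were 157 and 2885, then 958 and 1177, and 35 and 1053. For GPS2 in *Ncor* LKO they were 0 and 19, then 1042 and 246, so that more peaks were higher than lower with TMM scaling, and 4 and 7959, with 224 and 33248 without WT3. For GPS2 in *Ppara* KO they were 0 and 76, then 21 and 34, and 0 and 91. Depth limits *Mmp12*, *Pf4* and the GPS2 peaks, with few reads each.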

Other observations

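WT livers of the *Ncor* and *Smrt* lines differed in H3K27ac near *Ccl2*, a contrast added after the values were seen. Of the 33 peaks, 4 were called by edgeR, all of *Ccl2*, beside 22.3% of all peaks. The WT of the *Ncor* line was higher at -24.4 kb (log2 2.54, SE 0.28, adjusted p = 2.7e-05), at -19.9 kb (1.75, SE 0.22, adjusted p = 7.1e-05) and at -15.9 kb (1.62, SE 0.23, adjusted p = 1.8e-04), and lower at -1.4 kb (-0.46, SE 0.15, adjusted p = 0.035). At -24.4 kb the libraries were at 108, 104 and 76.5 scaled tags against 21.3, 14.7 and 13.4. The lines also differ in tags of the Y chromosome and near *Xist*, so line and sex cannot be told apart.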
